A study of Mus musculus with 35 samples.

Results

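H3K27Ac ChIP-Seq of wild-type mouse retinae at postnatal day 21 (P21) was compared with the same assay at P14, the step that follows eye opening. There were 2 libraries at each stage, all labeled as wild-type retina and as the antibody H3K27Ac-AB2, with no treatment and no transgene. These 4 libraries were chosen by mark, genotype and age from 27 samples with a peak list among 35 samples in the series. Overlapping peaks of the 4 lists were merged, which gave 55773 regions covering 48.0 Mb. The height of a region in a library was the largest fold enrichment over background among its peaks there, or 0 where the library had no peak. Nothing in the labels states whether replicates came from separate animals, so the p-values below measure the spread between these samples, which may be technical. Each library mixes all cells of the retina, and a lower height cannot be told apart from fewer cells of a type that carries the mark.

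Acetylation of lysine 27 on histone H3 is placed by the acetyltransferases p300 and CBP and marks active promoters and enhancers. H3K4me3 marks promoters, so an acetylated region without H3K4me3 is usually distal to a promoter. H3K27me3 is placed by Polycomb repressive complex 2 on the same lysine, which cannot carry both marks on 1 histone tail. Between P14 and P21 the mouse retina is past its last cell divisions, photoreceptors lengthen their outer segments, and synapses are refined by visual activity. Genome positions are those of the build mm9, which the submitters' processing notes name. No annotation of that build was used, so regions were not assigned to genes, and the retinal identity of the libraries was not checked against marker genes. Regions are described instead by the other marks found on them.

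Replicates 1 and 2 stood apart at both stages. The lists of P14 held 17433 peaks over 12.9 Mb in replicate 1 and 50005 peaks over 40.2 Mb in replicate 2. The lists of P21 held 18718 peaks over 16.8 Mb and 45833 peaks over 34.4 Mb. The weakest peak of each list had a −log10 q-value between 1.32 and 1.36, so all lists were cut at nearly the same significance. The number of reads is unknown, and the 2 libraries at each stage limit the precision of every comparison of the stages. P14 replicate 1 was nearly contained in replicate 2, with 99.1% of its peaks found there against 27.3% in the other direction. At P21 these shares were 93.8% and 37.8%. For this reason the 2 stages were also compared within replicate 1 and within replicate 2, whose lists have similar lengths.

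The first question was how much of the acetylated genome was shared by the 2 stages. In replicate 1, 77.5% of P14 peaks overlapped a P21 peak by at least 1 bp (Wilson 95% interval 76.8 to 78.1, counting error only). In the other direction 64.5% of P21 peaks overlapped a P14 peak (63.8 to 65.2). In replicate 2 the shares were 65.9% of P14 peaks (65.4 to 66.3) and 77.7% of P21 peaks (77.3 to 78.1). The direction of the larger share was therefore opposite in the 2 pairs, and in each pair the longer list had the smaller share. Among peaks with a −log10 q-value of at least 5 the P21 share was the larger in both pairs. It was 72.6% against 71.9% in replicate 1 and 84.5% against 66.4% in replicate 2. The longer list still had the smaller share, since P14 had more such peaks in both pairs (13442 against 12089 and 35228 against 29510). Peaks without a partner were weaker in every list. Their median fold enrichment was 4.78 at P14 and 4.35 at P21 in replicate 1, against 6.61 and 5.65 for peaks with a partner. In replicate 2 it was 3.91 and 4.03, against 6.25 and 5.32.

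A peak was present in all 4 libraries at 9828 regions, 17.6% of the total, and these were the widest and tallest of all patterns of presence. Their median width was 1828 bp and their median height 9.62-fold, against 492 bp for the width of all regions. The most frequent patterns followed the replicate. P14 replicate 2 alone had 16258 regions, the replicate 2 libraries of both stages had 13256, and P21 replicate 2 alone had 9239. Regions that followed the stage were few. Both P21 libraries and neither P14 library had a peak at 547 regions, or 0.981% of all. Both P14 libraries and neither P21 library had a peak at 171 regions, or 0.307%. The excess at P21 was smaller with lists cut to equal numbers of peaks (613 and 430) or to peaks with a −log10 q-value of at least 5 (267 and 178). Each of these counts also depended on single libraries. Without P21 replicate 1, 10164 regions would be specific to P21, and without P14 replicate 1, 16457 would be specific to P14. Without P14 replicate 2 the 2 counts were 3998 and 353, and without P21 replicate 2 they were 1354 and 2642.

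**Figure D1:**
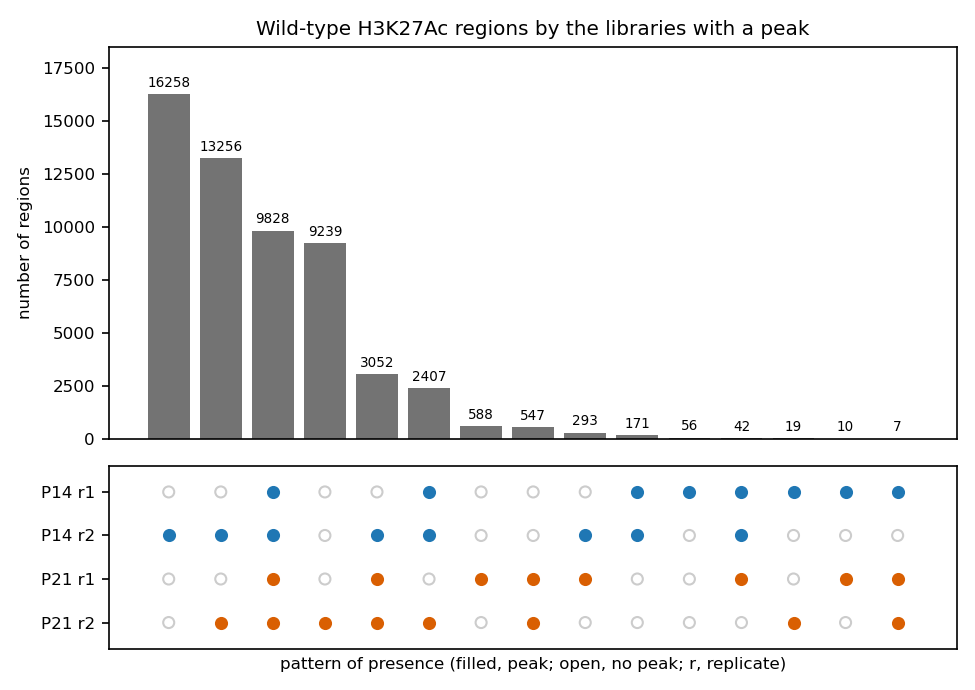
Number of merged H3K27Ac regions (y axis) for each pattern of presence in the 4 wild-type libraries, with filled points below a bar marking the libraries that had a peak. The tallest bars are P14 replicate 2 alone (16258 regions), both replicate 2 libraries (13256) and all 4 libraries (9828), whereas both P21 libraries alone hold 547 and both P14 libraries alone hold 171.

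Heights were compared at the 9828 regions with a peak in all 4 libraries. The median height there was 7.54-fold and 14.1-fold in P14 replicates 1 and 2, and 6.04-fold and 9.26-fold in P21 replicates 1 and 2. Heights were scaled to a common median before the comparison, so every change below is relative to the typical shared region. Without scaling the median change from P14 to P21 was −0.44 on the log2 scale. No region passed the limma test between the stages at a Benjamini-Hochberg adjusted p of 0.05, with 0% called higher and 0% called lower and a smallest adjusted p of 0.97. At an unadjusted p under 0.05 the same limma test gave 244 higher regions (2.48%) and 204 lower regions (2.08%). Neither share was above the rate that such a test gives with no change at any region. The standard error of a log2 change was 0.49 at every region, because limma gave all regions a common variance. It is thus not the spread of replicates at a single region. The log2 changes ranged from −1.68 to 1.81.

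The spread between replicates of a stage was at least as wide as the spread between stages. Across the 9828 regions the SD of the log2 ratio of P21 over P14 was 0.64 in replicate 1 and 0.60 in replicate 2. The SD of the log2 ratio of replicate 2 over replicate 1 was 0.68 at P14 and 0.69 at P21. Regions at least 2-fold apart made up 11.5% and 9.81% of the shared regions between stages, and 15.4% and 15.6% between replicates. Summit positions did not follow this order. The median distance between the P14 and P21 summits of a region was 90 bp in replicate 1 and 55 bp in replicate 2, against 70 bp between the P14 replicates and 103 bp between the P21 replicates, so the distances between stages lay on both sides of the P14 replicate distance and below the P21 replicate distance.

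Regions without H3K4me3 and regions with it differed in both pairs. Of the shared regions, 7227 overlapped an H3K4me3 peak in all 4 wild-type H3K4me3 lists of P14 and P21, 1148 in 1 to 3 of these lists, and 1453 in none. At the 1453 regions without H3K4me3 the median log2 ratio of P21 over P14 was 0.32 in replicate 1 and 0.39 in replicate 2. At the 7227 regions with H3K4me3 in every list it was −0.10 and −0.07. Regions with H3K4me3 in 1 to 3 lists resembled those without it, at 0.36 in both replicates. The regions are not replicates of a stage, and this difference was not tested over them.

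The difference was also seen among regions of like height. In the highest tercile of shared regions by mean scaled height, the median ratios were 0.38 and 0.30 for 69 regions without H3K4me3 and −0.22 and −0.14 for 2945 regions with it. In the lowest tercile they were 0.30 and 0.41 for 1150 regions without H3K4me3 and 0.08 and 0.08 for 1569 regions with it. After cyclic loess scaling the medians without H3K4me3 were 0.31 and 0.12, and with H3K4me3 in every list they were −0.13 and −0.04. In the pair of replicate 1, 8.74% of regions without H3K4me3 were at least 2-fold higher at P21 and 0.413% at least 2-fold lower. For regions with H3K4me3 in every list these shares were 3.53% and 8.27%. In the pair of replicate 2 the shares were 12% and 0.757% without H3K4me3, and 3.38% and 5.74% with it.

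**Figure D2:**
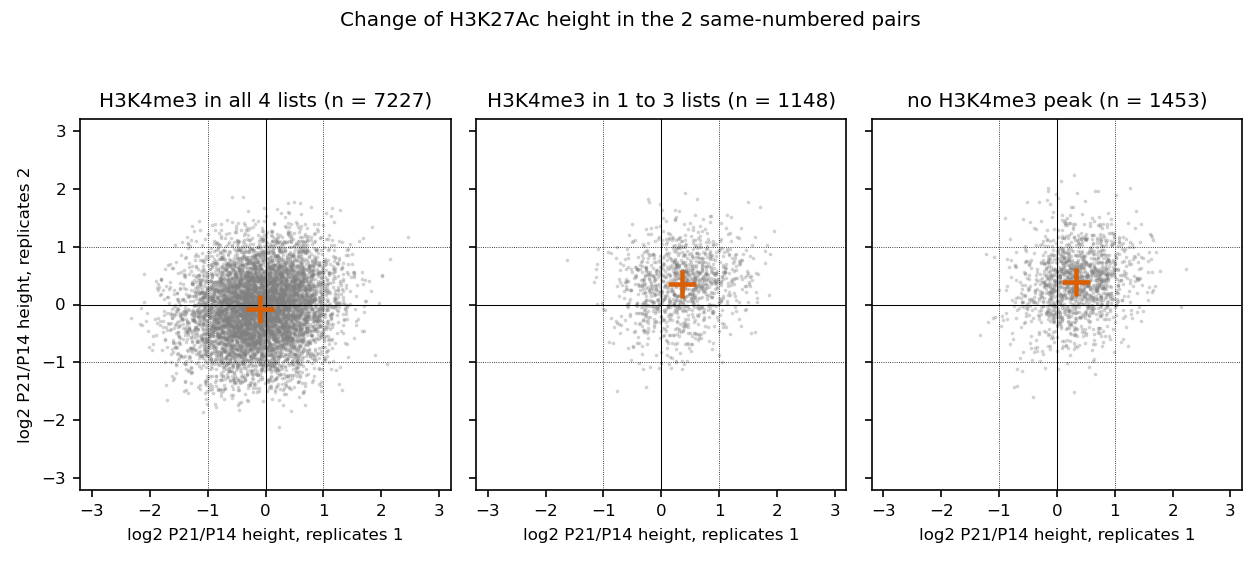
Log2 ratio of scaled H3K27Ac height, P21 over P14, in the replicate 1 pair (x axis) and the replicate 2 pair (y axis) at 9828 shared regions (gray points), split by the number of H3K4me3 lists with a peak. Orange crosses are medians and dotted lines mark 2-fold; the cross lies near 0 for H3K4me3 in all 4 lists (−0.10 and −0.07) and above 0 on both axes without H3K4me3 (0.32 and 0.39).

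The same classes differed more strongly between replicates than between stages. At regions without H3K4me3 the median log2 ratio of replicate 2 over replicate 1 was −0.53 at P14 and −0.53 at P21, against 0.01 and 0.06 at regions with H3K4me3 in every list. A ratio within each library, which needs no scaling, gave the same picture. The median height without H3K4me3 was 65.9% of the median height with it in P14 replicate 1 and 43.8% in P14 replicate 2. It was 92.9% in P21 replicate 1 and 61.3% in P21 replicate 2. The ratio was thus higher at P21 in each pair, but P14 replicate 1 lay above P21 replicate 2, so the stages overlapped. The means were 54.9% ± 15.6 at P14 and 77.1% ± 22.3 at P21 (SD, n = 2 each, exact permutation test, two-sided p = 0.667, where 0.333 is the smallest p that 2 against 2 allows). In unscaled values, the median height without H3K4me3 was 5.44-fold at P14 and 5.59-fold at P21 in replicate 1, and 7.33-fold and 6.27-fold in replicate 2. With H3K4me3 it was 8.25-fold and 6.01-fold in replicate 1, and 16.7-fold and 10.2-fold in replicate 2. The unscaled heights thus differed by more between stages at the regions with H3K4me3 than at those without it.

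The libraries of P12 gave a further view of this ratio. Over regions that also had a peak in all 3 P12 libraries, the ratio was 55.6% in the wild-type P12 library. It was 41.2% and 46.6% in the 2 libraries of Brg1-deficient P12 retinae, in which the chromatin remodeler Brg1 was deleted by the mosaic Chx10-Cre driver of retinal progenitor cells. On the same regions the P14 values were 66.9% and 45.0% and the P21 values 93.5% and 62.5%. The wild-type P12 value lay between the 2 P14 values.

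**Figure D3:**
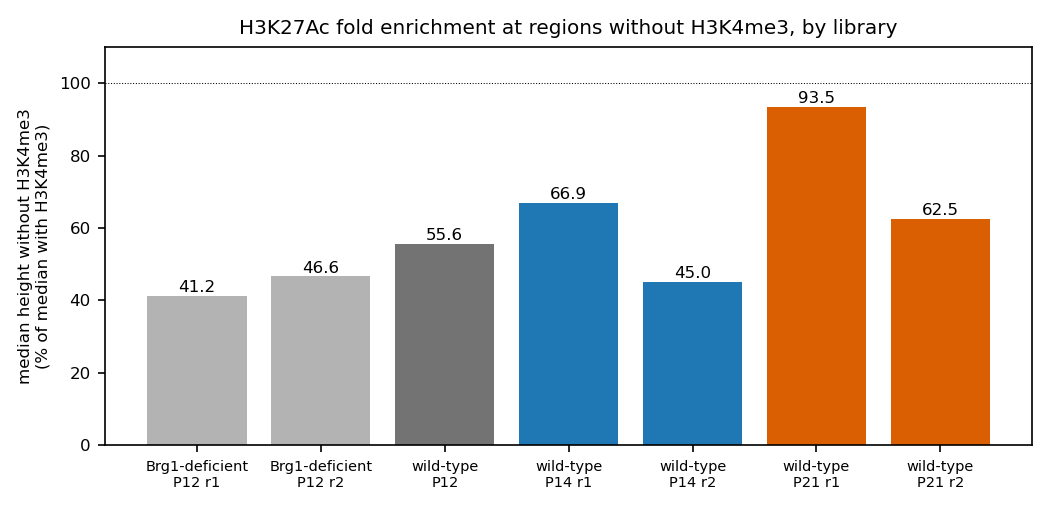
Median H3K27Ac fold enrichment at 1324 regions without H3K4me3 as a percentage of the median at 7205 regions with H3K4me3 in every list (y axis), for 7 libraries (1 bar each), over regions with a peak in all 7. P21 replicate 1 has the highest bar (93.5%), and P14 replicate 1 (66.9%) stands above P21 replicate 2 (62.5%).

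Regions that moved by at least 2-fold in the same direction in both pairs were described next, with no test, since the change itself chose them. There were 58 such regions higher at P21 (0.59% of those compared) and 47 lower (0.478%), and 22 regions moved by 2-fold in opposite directions. The 2 pairs had the same sign at 5779 regions, or 58.8%. The split between higher and lower depended on the scaling. Cyclic loess gave 33 higher and 47 lower regions, so that the higher ones made up 41.25% in place of 55.2%, and without scaling there were 3 higher and 493 lower.

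The 58 higher and the 47 lower regions differed in marks that the choice did not use. The choice did set their heights apart, with median scaled heights of 4.99 and 17.3 at P14 and 11.8 and 6.94 at P21. Whether height accounts for the marks was not tested. The marks coincided at the lower regions and were not counted as separate results. All 47 lower regions overlapped H3K4me3 in all 4 lists, all 47 had an H3K27Ac peak at P0 in at least 1 library, and 46 had a Brg1 peak in P0 retinae of Brg1-FLAG mice. Of the 58 higher regions, 18 had H3K4me3 in all 4 lists, 18 in 1 to 3 lists and 22 in none. With cyclic loess, H3K4me3 was in all 4 lists at 15 of the 33 higher regions and in none at 9, and in all 4 lists at 46 of the 47 lower regions. An H3K27Ac peak at P0 was found at 13 of the 58 (22.4%) and a Brg1 peak at 20 (34.5%). Over all shared regions, 73.5% had H3K4me3 in all 4 lists, 72.6% had H3K27Ac at P0 and 75.3% had a Brg1 peak. The larger sets of regions whose 2 stages did not overlap in scaled height came from the same 4 heights and are no separate support. Ordering the 4 libraries at random would give sets of about the same sizes. The marks of these sets followed the same order. The 1611 such regions higher at P21 (16.4%) had H3K27Ac at P0 in 48.2% of cases and H3K4me3 in all 4 lists in 50.1%. For the 1585 lower regions (16.1%) these shares were 95.5% and 94.7%.

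The wild-type P12 library, which had no part in the choice, was set beside the stages on the scaled log2 height. At the 58 higher regions the median scaled height was 4.99 at P14, 5.55 at P12 and 11.8 at P21, and P12 lay nearer to P14 than to P21 at 47 of 58 (81.0%). At the 47 lower regions the medians were 17.3 at P14, 12.6 at P12 and 6.94 at P21, and P12 lay nearer to P14 at 27 of 47 (57.4%). Over all shared regions P12 lay nearer to P14 at 58.5%. The low heights of the higher regions at P14 were thus also found a few days earlier in a separate library, whereas the lower regions had intermediate heights at P12. In the Brg1-deficient P12 libraries, the higher regions lay nearer to P14 at 49 of 54 and 49 of 56 regions with a peak, and the lower regions at 36 of 47 (76.6%) in each. Over all shared regions with a peak, these 2 libraries lay nearer to P14 at 63.5% and 61.8%.

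Among the 8 regions with the largest ratio of scaled heights, chr13:23983471-23986791 ranked first. Its fold enrichment was 3.28 and 6.39 in P14 replicates 1 and 2, and 14.4 and 9.43 in P21 replicates 1 and 2. Both P21 values lay above both P14 values, and the mean scaled height was 3.83-fold higher (limma log2 change 1.81, SE 0.49, adjusted p = 0.97). The acetylated stretch was also longer at P21, with peaks over 3321 and 2557 bp against 639 and 2131 bp at P14. It carried H3K4me3 in all 4 lists and no H3K27Ac peak at P0.

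The region chr12:113797115-113798962 followed, at 2.76 and 4.06 in P14 replicates 1 and 2 and at 7.24 and 8.54 in P21 replicates 1 and 2. The region chr2:129651081-129653806 had heights of 3.66 and 5.86 at P14 and 11.3 and 9.25 at P21. Both had no H3K4me3 peak at P14 and had one at P21, the first in replicate 1 (6.96-fold) and the second in both replicates (10.4-fold and 4.85-fold). The H3K4me3 list of P21 replicate 1 overlapped 39.8% of all regions. The other H3K4me3 lists of P14 and P21 overlapped 32.5% to 33.9%, so a peak in that list alone may come from its greater reach. The region chr11:103252256-103252964 had no H3K4me3 in any list, and its height was 3.71 and 4.25 at P14 and 7.10 and 11.3 at P21. The wild-type P12 library had 3.76 there, and neither Brg1-deficient P12 library had a peak. Each of the other named higher regions had a peak in at least 1 of the Brg1-deficient libraries. The region chr6:116056768-116058395 stood out from the others by an H3K27Ac peak in both P0 lists. Its heights of 2.93 and 9.04 at P14 and 8.43 and 15.1 at P21 overlapped before scaling. The remaining 3 regions were chr8:18855459-18857272, chr1:5058724-5060417 and chr19:29586177-29589360, with ratios of 3.03-fold, 2.96-fold and 2.77-fold. At chr8:18855459-18857272 the unscaled wild-type P12 height was 8.03, above both P14 heights (3.31 and 3.69). Across the 8, this height lay above both P14 heights at some regions and between them at the others. The limma adjusted p was 0.97 for each of the 8.

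The 8 regions with the largest ratio in the other direction were alike in their other marks. Chromosome 18 was left out of the naming in both directions, and it held 1 region with a more negative limma log2 change than any of these 8. Each had H3K4me3 in all 4 lists, H3K27Ac in both P0 lists and a Brg1 peak at P0. Among the 8, chr8:90885053-90886281 ranked first, with 13.5 and 34.4 in P14 replicates 1 and 2 and 3.28 and 8.62 in P21 replicates 1 and 2. Its mean scaled height was 2.88-fold lower at P21 (limma log2 change −1.56, SE 0.49, adjusted p = 0.97). The replicate 1 value at P14 and the replicate 2 value at P21 were the closest of the 2 stages, and they did not overlap.

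The region chr9:58401765-58404968 had close P14 values of 28 and 25.5, against 6.69 and 8.41 at P21. The region chr6:120615088-120618176 was among the tallest at P14, at 27.3 and 45.8, and had 8.29 and 10.7 at P21. Its H3K4me3 heights were 33.0 and 76.6 in P14 replicates 2 and 3, and 73.2 and 28.3 in P21 replicates 1 and 2. These unscaled H3K4me3 heights overlapped between the stages, as they did at each of the other named lower regions. At each of them H3K4me3 was higher in P21 replicate 1 than in P21 replicate 2. The region chr5:137971707-137975014 had shorter peaks as well, with 2701 and 3308 bp covered at P14 and 632 and 881 bp at P21, with heights of 14.1 and 19.7 and then 3.74 and 5.38. It overlapped H3K27me3 islands in 2 of 4 lists. The other 4 were chr4:82504684-82506033, chr11:72420707-72422268, chr3:121517353-121518672 and chr5:123300039-123301313, with ratios between 2.65-fold and 2.85-fold. The limma adjusted p was again 0.97 for each.

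**Figure D4:**
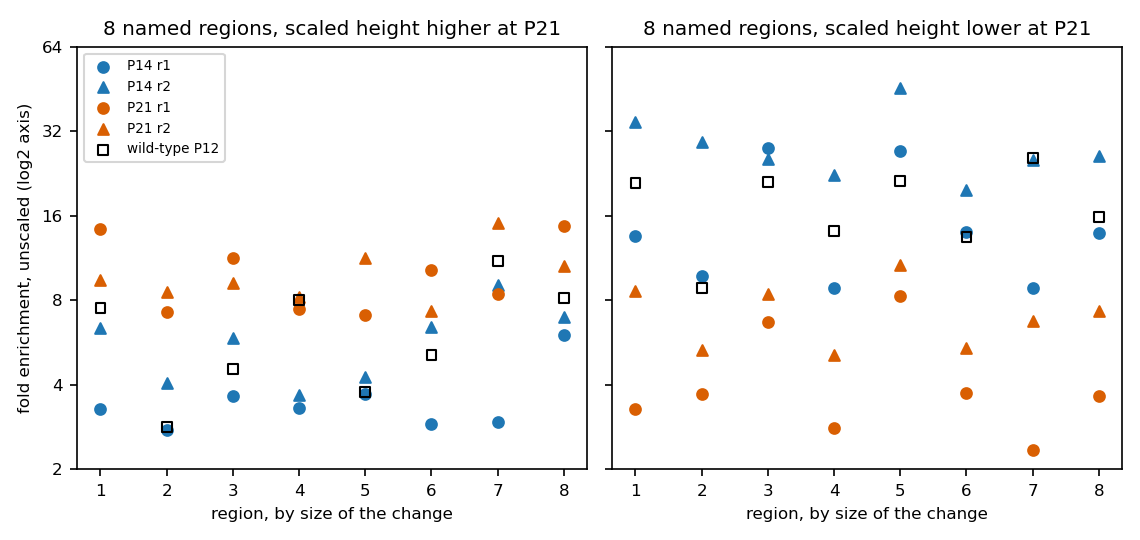
Unscaled H3K27Ac fold enrichment (log2 axis) in each wild-type library at the 8 regions with the largest ratio of scaled height in either direction, chromosome 18 left out, ordered by size of the change; blue is P14, orange P21, circles replicate 1, triangles replicate 2 and open squares the P12 library. On this unscaled axis the stages overlap at region 7 of the left panel (9.04 in P14 replicate 2 and 8.43 in P21 replicate 1).

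H3K4me3 was compared between the same stages as another mark, with P14 replicates 2 and 3 and P21 replicates 1 and 2. Replicates are numbered by their titles (the deposited P14 lists number them 1 and 2). Heights of both marks are ratios over a background that they may share at a stage. H3K4me3 was therefore not taken as independent of the acetylation. At the 47 lower regions the median log2 change of H3K4me3 was −0.48, with 7 of 47 above 0. At the 18 higher regions with H3K4me3 in every list it was 0.62, with 14 of 18 above 0. The median over all 17326 acetylated regions with H3K4me3 in every list was −0.06, with 7621 above 0, and over the 7227 of them with a peak in all 4 acetylation libraries it was 0.03, with 3815 above 0. With H3K4me3 peaks merged into regions of their own the medians were −0.45 at the 47 lower regions, 0.59 at 19 higher regions and −0.03 over all 18673 acetylated regions that overlapped one.

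The limma test for H3K4me3 called 23 regions higher (0.133%) and 2 lower (0.0115%) at an adjusted p of 0.05. At 24 of these 25 the tallest H3K4me3 peak had its summit outside the acetylated region in at least 1 library, so its value came from a peak centered outside the region. Neighboring regions could also share a peak. The called regions chr9:64791904-64792418, chr9:64792737-64793100 and chr9:64793130-64793527 had the same H3K4me3 heights in P21 replicates 1 and 2 (49.8 and 23.3). The 23 are thus not 23 separate H3K4me3 changes. Over 15908 H3K4me3 regions merged from their own peaks, limma called 0 higher (0%) and 2 lower (0.0126%), with 343 and 897 at an unadjusted p under 0.05.

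The 547 regions found in both P21 libraries and in neither P14 library were short and low. Their median width was 562 bp, their median height 4.43-fold, and the highest mean height 7.07-fold. H3K4me3 was absent from all 4 lists at 475 of them (86.8%), against 59.9% of all regions. Only 8 (1.46%) had an H3K27Ac peak at P0, against 32.8% of all regions, and 19 (3.47%) had a Brg1 peak at P0, against 38.4%. They lay at a median of 7.68 kb from the nearest region shared by all 4 libraries, and 301 (55.0%) lay within 10 kb of one. A P14 peak lay within 500 bp of 220 of them. Of the 327 others, 89.9% had no H3K4me3 and 1.83% had a Brg1 peak.

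The 171 regions found in both P14 libraries and in neither P21 library had similar sizes, with a median width of 546 bp and a median height of 4.71-fold. Their other marks differed from those of the P21 regions. H3K27Ac was present at P0 at 51 (29.8%, against 32.8% of all regions) and a Brg1 peak at 67 (39.2%, against 38.4%). H3K4me3 was absent at 122 (71.3%, against 59.9%). For H3K27Ac at P0 and for Brg1 the P14 regions were thus close to all regions. H3K27me3 islands of both P14 libraries overlapped 18 (10.5%), against 11 (2.01%) of the P21 regions and 7.94% of all regions. They lay farther from shared regions, at a median of 21.7 kb.

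P12 libraries separated the 2 sets. The wild-type P12 library had a peak at 132 of the 171 P14 regions (77.2%, Wilson 95% interval 70.3 to 82.8) and at 209 of the 547 P21 regions (38.2%, 34.2 to 42.3), against 57.7% of all regions. At the 327 P21 regions without a nearby P14 peak the share was 30.0%. In the 2 Brg1-deficient P12 libraries, the P14 regions had a peak at 77.8% and 80.1%. The P21 regions had one at 12.4% and 25.0%, against 52.0% and 56.3% of all regions. Of the 209 P21 regions with a wild-type P12 peak, 107 (51.2%) had no peak in either Brg1-deficient library. Of the 132 P14 regions with a wild-type P12 peak, 10 (7.58%) had none, and over all regions with such a peak this share was 13.5%. Over the regions shared by all 4 libraries that had a wild-type P12 peak it was 0.357%, and these tall regions lower the share over all regions. The P21 regions were low (median height 4.43-fold), as were the P14 regions (4.71-fold). A low peak can be missed in another list, and whether height accounts for these shares was not tested. There was 1 wild-type library at P12, so the difference between genotypes was not tested.

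**Figure D5:**
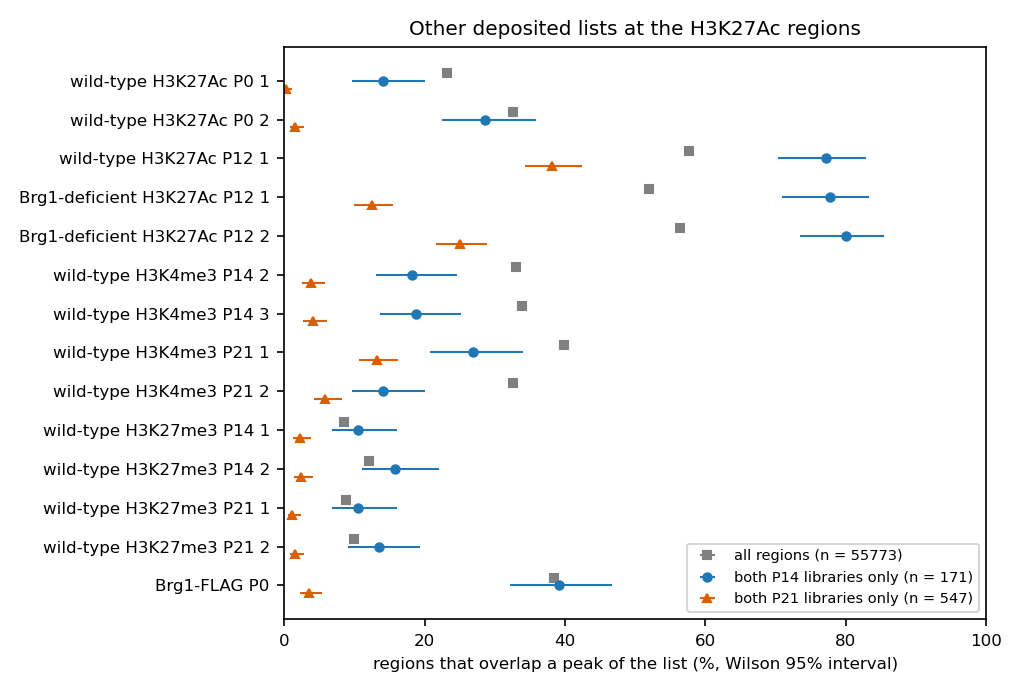
Share of regions that overlap a peak of each other deposited list (x axis, percent, with Wilson 95% intervals), for all 55773 regions (gray squares), the 171 regions of both P14 libraries only (blue circles) and the 547 regions of both P21 libraries only (orange triangles). The last number of a row label is the replicate; the P21 regions lie below all regions in every list, and the P14 regions lie above all regions in the 3 P12 H3K27Ac lists.

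The tallest of the P21 regions was chr13:105425691-105426769, at 6.34 and 7.79 in P21 replicates 1 and 2. The wild-type P12 library had a peak of 5.09 there and the Brg1-deficient libraries had none. The next were chr9:91333260-91335013 (7.28 and 6.16), chr11:60345658-60347396 (7.28 and 5.74), chr3:5452411-5454013 (6.73 and 5.92) and chr2:35729626-35730327 (5.58 and 7.05). None of these 5 had H3K27Ac at P0, and the last overlapped H3K4me3 in both P21 lists and in neither P14 list. The tallest P14 region was chr4:8351590-8352176, at 6.67 and 10.3 in P14 replicates 1 and 2, and all 3 P12 libraries had a peak there, of 11.8 in wild-type retinae and 10.6 and 10.3 in Brg1-deficient retinae. The regions chr11:44375677-44376539 and chr4:140435531-140436076 followed with a similar pattern. The regions chr11:107655278-107656255 (3.66 and 10.04) and chr11:85651196-85652126 (5.0 and 8.61) differed from these in that both overlapped H3K4me3 and H3K27me3 in all 4 lists.

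The tallest and the widest regions were taken from those with a peak in all 4 libraries. The tallest region by mean height, chr11:78154095-78162682, had 35.2 and 32.8 in P14 replicates 1 and 2 and 27 and 22.9 in P21 replicates 1 and 2, a ratio of 1.01-fold after scaling. The next of the tallest were chr15:81415710-81417933, chr3:17683831-17699589, chr7:80760881-80764736 and chr11:108781373-108783638. Among these, chr7:80760881-80764736 had the largest ratio, 1.93-fold lower at P21, with heights of 41.6 and 36.5 and then 12.3 and 20.1 (limma log2 change −0.85, SE 0.49, adjusted p = 0.97). The widest region, chr5:104200952-104219361, spanned 18410 bp and had heights of 11.7 and 14.1 at P14 and 14.2 and 12.7 at P21. The other 4 of the widest, chr14:65196938-65215280, chr6:30115174-30132259, chr5:115876459-115892312 and again chr3:17683831-17699589, spanned between 15759 and 18343 bp. All 9 of these regions had H3K4me3 in all 4 lists, H3K27Ac in both P0 lists and a Brg1 peak at P0.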

How the data were processed

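ChIP was performed on retinae with the iDeal ChIP-seq kit. The submitters' processing notes name BWA 0.5.9-r26, Picard 1.65, MACS2 2.0.9, SICER 1.1 and the build mm9, without roles. The authors deposited 1 peak list per library, not pooled, in which every peak carries a fold enrichment, a ratio over background, and a −log10 q-value. The deposited H3K27me3 lists give islands, and their read counts were not used. How inputs were handled is not given in the sources used here. Of the input samples listed here, the P21 one is labeled P21 by title and age but P14 by source name, so the background behind the P21 heights is uncertain. Fold enrichment moves with a library's depth and quality, and no scaling between libraries is stated.

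Peaks of the 4 lists were merged at an overlap of 1 bp with Python 3.11.15 and checked with bedtools 2.31.1. Heights were scaled to a common median over regions with a peak in all 4 libraries, log2 transformed without a pseudocount, and tested in limma 3.58.1 under R 4.3.3 with eBayes and Benjamini-Hochberg adjustment. The script was tested on simulated heights with independent noise and changes larger than any H3K27Ac log2 change in the main fit. Changes of the observed size were not simulated. Counts of 2-fold changes used the scaled ratios within replicate numbers. Shares carry Wilson intervals from scipy 1.17.1. P12 heights were scaled the same way.

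Regions were named by size of the ratio among those whose stages did not overlap (8 in each direction), as the 5 tallest of each 1-stage pattern, and as the 5 tallest and 5 widest shared regions, leaving out chromosome 18. The members and lists were chosen with earlier results of these data known. Planned gene groups could not be run without an mm9 annotation. Alternatives covered scaling, pseudocount, filters, merging, q-value, overlap, replicate block and left-out libraries.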

Additional observations from a re-analysis of the deposited data

How the results depend on the processing

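No region passed the limma test in either direction without scaling, after cyclic loess, with a pseudocount, with other filters, with −log10 q-values as heights, with P0 in the fit, with merging at 500 bp, with peaks of a −log10 q-value of at least 5, or without any 1 library. With the replicate number as a block, 6 of the 9828 regions were higher and 1 lower. The 6 were all among the 8 named higher regions (limma adjusted p from 0.0249 to 0.0480 with the block, against 0.97 without it), and the lower one lay on chromosome 18. None of the 7 was called with the block and cyclic loess. At an unadjusted p under 0.05 in limma, the block fit gave 657 higher and 568 lower regions, more than the 244 and 204 of the main fit. With the block and cyclic loess the counts were 485 and 476. The labels do not say that a number marks a shared litter or day, and there are 2 pairs. The differences between replicates correlated at r = 0.38 between the stages across 9828 regions, so the numbers share a difference but were not taken as pairing the samples.

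The 547 P21 regions became 267 at a −log10 q-value of at least 5, 273 with merging at 500 bp, and 554 to 10164 without 1 library. The 171 P14 regions became 430 with equal numbers of peaks, 103 with merging at 500 bp, and 237 to 16457 without 1 library. Shares found at the other stage, in the order P14 replicates 1 and 2 and P21 replicates 1 and 2, were 74.5%, 62.8%, 61.5% and 74.3% at 50% overlap, 71.9%, 66.4%, 72.6% and 84.5% at a −log10 q-value of at least 5, and 75.5%, 68.9%, 66.8% and 75.4% with equal numbers of peaks.

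The following settings were chosen after seeing the data. The 58 regions at least 2-fold higher became 33 with cyclic loess, 3 without scaling and 521 to 526 in 1 pair alone. The 47 lower regions became 28 at a −log10 q-value of at least 5, 493 without scaling and 438 to 613 in 1 pair alone. The 25 H3K4me3 calls became 2 on regions merged from H3K4me3 peaks and 38 to 133 without 1 library. Leaving out regions with a peak of the other stage within 500 bp moved the share of P21 regions with a wild-type P12 peak from 38.2% to 30.0%, with a Brg1 peak from 3.47% to 1.83%, and without H3K4me3 from 86.8% to 89.9%. Each cause was not tested, beyond the smaller number of libraries or peaks that a setting itself imposes. Weak peaks limit these comparisons, since most 1-stage regions lie near the lower end of heights and replicate 1 lists hold few of them.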

Other observations

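Without the need for a peak in all 4 libraries, each pair alone gave a larger set. In the replicate 2 pair, 28543 regions had a peak at both stages. Over all of these, 983 (3.44%) were at least 2-fold higher at P21 and 1878 (6.58%) at least 2-fold lower. Of the 11070 without H3K4me3, 555 (5.01%) were higher and 107 (0.967%) lower. Their median log2 ratio was 0.23 after scaling over all 28543. Of the 14631 with H3K4me3 in every list, 294 (2.01%) were higher and 1715 (11.7%) lower, with a median of −0.27. In the replicate 1 pair, 9887 regions had a peak at both stages, and the medians were 0.28 for 1489 regions without H3K4me3 and −0.13 for 7239 regions with it. Nearly all of these 9887 are the 9828 regions compared above, so this is no separate result.

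H3K27me3 islands of both P14 libraries overlapped 183 of the 9828 shared regions (1.86%), and 1758 of the 13256 regions found in both replicate 2 libraries only (13.3%). The latter had H3K4me3 in all 4 lists at 4921 (37.1%) and a wild-type P12 peak at 71.2%.

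By chromosome, the share of regions present in all 4 libraries ran from 16% on chromosome 4 to 23.0% on chromosome X, leaving aside 2 regions on chromosome Y.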
